A study of Homo sapiens with 4 samples.

Results

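The genes described here are 10 stress response factors that work in or around the ATF4 pathway: ATF3, ATF4, ATF5, DDIT3 (which encodes CHOP), TRIB3, CHAC1, GDF15, CEBPB, CEBPG and GTPBP2. They are read by 21 of the 54675 probe sets of the Affymetrix U133 Plus 2.0 array, counting the probe sets whose annotation names one of these genes and no other. The genes were chosen from their levels in the DCD shRNA arrays against the pLKO array, which earlier work on the same arrays had shown, so their differences from pLKO are a description and carry no test. RNA was taken from MDA-MB-361, an established HER2-positive breast cancer cell line grown in the medium its supplier recommends. Derivatives numbered clone 1, clone 2 and clone 3 carry different short hairpin RNAs (shRNAs) against separate regions of the DCD transcript in the lentiviral vector pLKO-puro, and the control carries the pLKO vector. The study's text calls the derivatives clones in some places and cell pools in others. DCD encodes dermcidin, a secreted peptide. Each derivative and the control gave 1 array, so there were 3 shDCD arrays and 1 pLKO array, all from cells carrying pLKO, and the study asked which genes differ from the control in all 3 comparisons.

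Cells that lack amino acids, accumulate misfolded protein in the endoplasmic reticulum or meet other stresses phosphorylate the translation factor eIF2 alpha. General protein synthesis then drops while the mRNA of ATF4, a transcription factor of the basic leucine zipper (bZIP) type, is translated more. ATF4 pairs with C/EBP factors and switches on genes for amino acid supply, and with them further regulators such as CHOP, ATF3 and TRIB3, some of which later restrain the response. An array reads mRNA, so it does not measure the translational step by which ATF4 itself is controlled.

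DCD is read by 1 probe set, with intensities of 7, 6 and 2.7 in clones 1, 2 and 3 and 2 in pLKO, all below 16, the intensity to which lower values were raised, so the arrays do not check the knockdown. The median intensity was 20, 24.7, 13.4 and 20.6 in clones 1 to 3 and pLKO. RNA quality marks differed as well: control probes at the 3' end of ACTB were brighter than those at its 5' end by ratios of 9.67, 2.58, 42.6 and 5.29 in that order, and for GAPDH the ratios were 2.18, 1.02, 13.1 and 1.09. Clone 3 therefore stands apart and clone 1 lies above pLKO on both ratios, while clone 2 has ratios no higher than pLKO. The part of RNA quality in the differences below was not tested. Counts of members and ATF4 targets lower throughout, and some member means, are also given without clone 3. Those of the other lists are not. The 8 luminal epithelial markers, among them ERBB2, KRT8 and GATA3, had intensities of 112.8 or more on every array, the 3 leukocyte markers with a probe set 25.2 or less, and the fibroblast marker COL1A1 199.9 to 253.9. The other fibroblast markers were dimmer: COL1A2 read 26.2 to 56.3, COL3A1 1.5 to 33 and PDGFRB 3.1 to 29.5. The summed intensity of the fibroblast markers was 287.4, 336.2, 243.8 and 260.3 in the same order of arrays. In bulk RNA a smaller share of cells of 1 kind and less RNA per cell cannot be told apart.

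GDF15, GTPBP2, CEBPB and TRIB3 were lower than pLKO in all 3 shDCD arrays after quantile normalization. DDIT3, CHAC1 and CEBPG were lower in clones 1 and 2 but slightly higher in clone 3, and ATF4, ATF3 and ATF5 went both ways. Taking for each gene its brightest probe set, 4 of the 10 genes (40%) were thus lower in all 3 comparisons and 0 were higher, beside 21.3% lower and 18.8% higher among the 12728 genes tested. Without clone 3, 8 of the 10 genes were lower in both of the other clones, beside 30.8% of all genes. The median log2 difference of the 10 genes was -1.47 in clone 1, -1.57 in clone 2 and -0.12 in clone 3, where the median of all genes was 0.01, 0.00 and -0.11. All 3 comparisons share the 1 pLKO array, so anything particular to that culture enters each of them.

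Of the 21 probe sets, 16 passed the filter on low values, and all 10 genes kept at least 1. Of these 16, 9 were at least 2-fold lower in clone 1 (10.2% of all 27307 probe sets tested), 10 in clone 2 (4.09%) and 4 in clone 3 (21.3%). None was at least 2-fold higher, where 8.38%, 3.61% and 19.4% of all probe sets were. In clone 3 the members' share of 4 in 16 lies near that of all probe sets. Lower in every comparison were 7 of the 16, beside 20.0% of all, and 2 were at least 3-fold lower in each, beside 0.179%. Those 2 are the brightest probe sets of GDF15 and GTPBP2, and without clone 3 there were 6 such probe sets in the other clones, beside 0.48% of all. The 5 probe sets under the filter belong to ATF3, ATF5 (2 of them), GDF15 and GTPBP2. Among the 16, 223789_s_at of GTPBP2 passed only through pLKO, at 49.6 normalized, with 16, 17.0 and 16 in clones 1 to 3. It counts among the probe sets lower in each clone and lower throughout, which the filter nearly fixed.

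**Figure D1:**
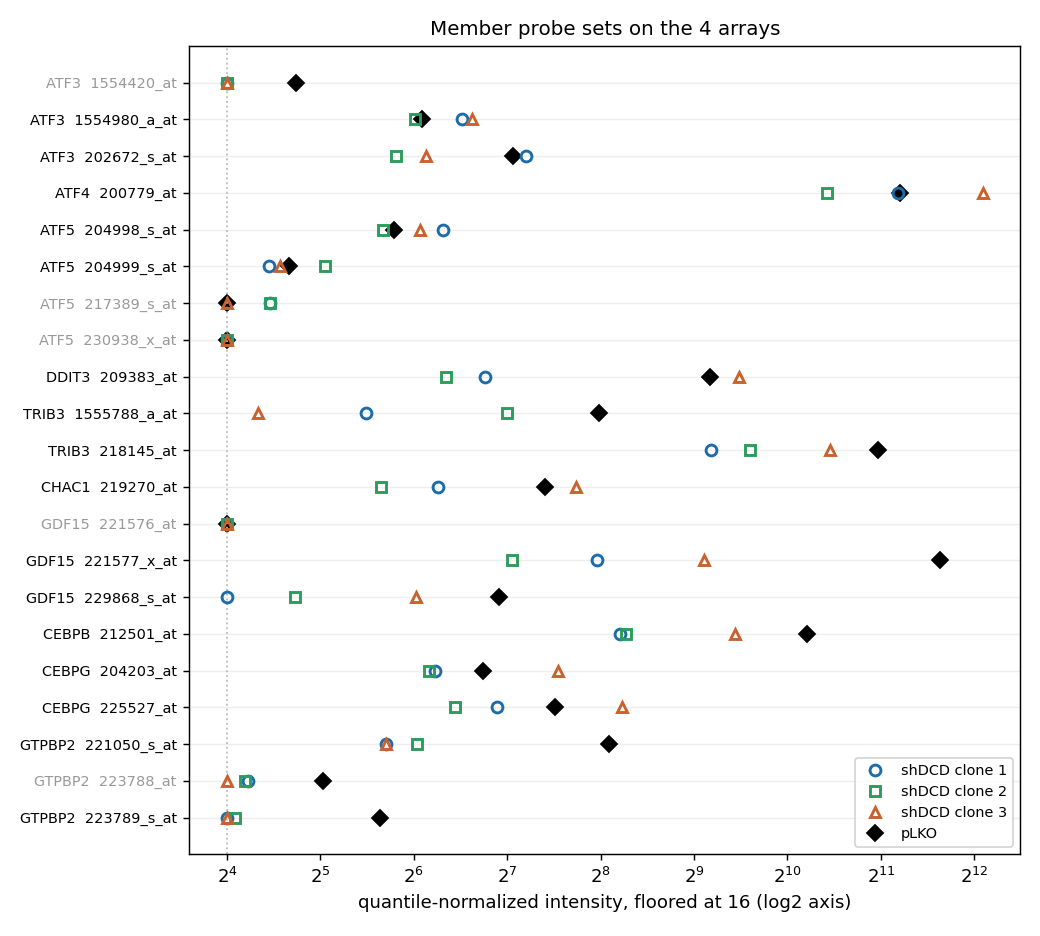
Quantile-normalized intensity, floored at 16, of the 21 probe sets of the 10 genes on a log2 axis; each row is 1 probe set, open symbols are the shDCD clones, filled diamonds are pLKO, grey names did not pass the filter and the dotted line marks the floor. The pLKO array lies to the right of all 3 clones for the bright probe sets of GDF15, GTPBP2, CEBPB and TRIB3, and clone 3 lies to the right of pLKO for ATF4, DDIT3, CHAC1 and CEBPG. Clone 3 also does so for 204998_s_at of ATF5 and 1554980_a_at of ATF3.

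GDF15 is a stress-induced cytokine of the TGF-beta superfamily that acts on the brainstem through the receptor GFRAL. Its probe set 221577_x_at had deposited intensities of 211.6 in clone 1, 222.9 in clone 2 and 272.9 in clone 3 against 4787.2 in pLKO. The 3 clones lie close together and far below the control. After normalization the difference was 12.7-fold in clone 1, 23.9-fold in clone 2 and 5.75-fold in clone 3, a mean log2 difference of -3.59 ± 1.03 (SD, n = 3 comparisons). Ranked from the lowest log2 difference among the 27307 probe sets, it stood at 3 in clone 1, 4 in clone 2 and 641 in clone 3. A second probe set, 229868_s_at, read 9.6, 34.9 and 38.4 in clones 1 to 3 against 151.6 in pLKO, which is at least 7.50-fold lower in clone 1, where it was at the floor, 4.54-fold in clone 2 and 1.85-fold in clone 3. Both probe sets order the clones below pLKO, with the smallest difference in clone 3. The remaining one, 221576_at, stayed at the floor on all 4 arrays, so that the mean over all 3 probe sets was a log2 difference of -1.86. The suffix x_at marks a probe set in which some probes also match other transcripts.

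GTPBP2, a GTPase that helps to rescue stalled ribosomes, had the most even difference of the members lower in all 3 comparisons after quantile normalization, though not in the values as deposited. Its probe set 221050_s_at read 48.7 in clone 1, 100.4 in clone 2 and 32.3 in clone 3 against 356.8 in pLKO. Normalized, it was 5.25-fold, 4.16-fold and 5.24-fold lower, a mean log2 difference of -2.28 ± 0.19 (SD, n = 3 comparisons). Probe set 223789_s_at, which passed the filter only through its pLKO value, read 10.6, 21.6 and 2.3 against 57.8 in pLKO. That is at least 3.10-fold lower in clones 1 and 3, both at the floor, and 2.92-fold lower in clone 2. The dimmest, 223788_at, which did not pass the filter, read 19.5, 23.4 and 9.9 against 36.

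CEBPB is a bZIP factor that takes part in inflammatory and stress transcription and can pair with ATF4. Its only probe set, 212501_at, read 252.5 in clone 1, 548.4 in clone 2 and 341.9 in clone 3 against 1662.8 in pLKO. All 3 clones lie under the control, and normalized they were 3.99-fold, 3.83-fold and 1.70-fold lower, a mean log2 difference of -1.56 ± 0.70 (SD, n = 3 comparisons).

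TRIB3 is a pseudokinase that is induced by ATF4 and CHOP and binds both to restrain them. Its brighter probe set, 218145_at, read 477.3, 1397.1 and 661.7 in clones 1, 2 and 3 against 2865.3 in pLKO, and was 3.47-fold, 2.60-fold and 1.43-fold lower after normalization. The other, 1555788_a_at, read 43, 214.6 and 14 against 331.3 and was 5.63-fold, 1.97-fold and 12.6-fold lower. Both place all clones below pLKO but disagree on clone 3, which had the smallest difference by the first and the largest by the second. Over the comparisons the brighter probe set averaged a log2 difference of -1.23 ± 0.65 and the other -2.38 ± 1.34 (SD, n = 3).

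DDIT3 encodes CHOP, a C/EBP family factor that ATF4 induces and that promotes cell death under lasting stress. Its only probe set, 209383_at, read 95 in clone 1, 127.9 in clone 2 and 352.7 in clone 3 against 781.4 in pLKO. Clones 1 and 2 lie well below the control, and clone 3 lies between them and pLKO. After normalization DDIT3 was 5.30-fold lower in clone 1 and 7.10-fold lower in clone 2, while clone 3 was 1.25-fold higher. Its rank from the lowest was 81 in clone 1 and 26 in clone 2 but 16611 in clone 3. Its log2 difference averaged -1.64 ± 1.71 (SD, n = 3 comparisons), and -2.68 without clone 3.

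CHAC1, an enzyme that breaks down glutathione and is a target of ATF4 and CHOP, had the same order. Its only probe set, 219270_at, read 69.3, 73.3 and 111 in clones 1 to 3 against 217.8 in pLKO. Normalized, it was 2.21-fold lower in clone 1, 3.38-fold lower in clone 2 and 1.26-fold higher in clone 3. CEBPG, a short bZIP partner of ATF4, followed with smaller differences: probe set 225527_at read 103.4, 137.8 and 151.5 against 234.7, and was 1.55-fold and 2.11-fold lower in clones 1 and 2 and 1.64-fold higher in clone 3. Its second probe set, 204203_at, read 67.5, 110.7 and 97.2 against 134.3, with normalized log2 differences of -0.51, -0.58 and 0.80. For DDIT3, CHAC1 and both CEBPG probe sets, clone 3 is below pLKO in deposited intensity and above it after quantile normalization. The same holds for ATF4, for 204998_s_at of ATF5 and for 1554980_a_at of ATF3. Without clone 3, the mean log2 difference was -1.51 for CHAC1 and -0.88 for CEBPG, against -0.86 and -0.33 with it.

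The stretches before the transcription starts of CHAC1, ATF3 and GDF15 are shown because the first 2 are the members whose windows hold the letters at which ATF4 and C/EBP pairs bind, and the third is the member with the lowest mean difference from pLKO. They cover 250 bases from RefSeq on GRCh38.p14, at chr15:40953221-40953470, chr1:212565157-212565406 and chr19:18385908-18386157, all on the plus strand, and capitals mark a match to TGATGNAA, the core of the C/EBP-ATF response element, on either strand.
CHAC1: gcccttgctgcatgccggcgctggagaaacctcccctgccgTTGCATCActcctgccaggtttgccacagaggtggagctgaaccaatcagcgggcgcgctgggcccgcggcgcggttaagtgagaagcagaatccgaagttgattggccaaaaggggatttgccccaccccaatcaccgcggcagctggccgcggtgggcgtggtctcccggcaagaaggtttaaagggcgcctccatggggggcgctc
ATF3: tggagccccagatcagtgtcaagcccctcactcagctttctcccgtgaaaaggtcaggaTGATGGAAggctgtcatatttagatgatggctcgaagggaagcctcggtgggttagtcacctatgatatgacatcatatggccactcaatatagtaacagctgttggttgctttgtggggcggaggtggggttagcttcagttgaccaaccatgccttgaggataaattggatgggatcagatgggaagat
GDF15: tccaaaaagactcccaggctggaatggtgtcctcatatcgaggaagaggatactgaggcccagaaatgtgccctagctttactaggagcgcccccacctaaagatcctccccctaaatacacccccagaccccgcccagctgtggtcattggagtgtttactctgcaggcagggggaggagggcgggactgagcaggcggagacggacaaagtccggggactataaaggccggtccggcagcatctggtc
The CHAC1 match, TTGCATCA, lies on the minus strand at -209 to -202 from the start, and the ATF3 match, TGATGGAA, on the plus strand at -191 to -184. Promoter windows of 300 bases, from 250 before to 50 after the start, were found for all 10 genes. Only the first listed window of each gene was searched, so any other transcription start of a gene is not covered. Of these 2 held TGATGNAA, which 3.67% of 27305 such windows held, and 0 held TGACGTCA, the cAMP response element, which is its own reverse complement and which 1.98% held. A match of letters is no measure of binding, and a window without one says only that these letters are not in it.

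ATF4 itself, the transcription factor at the head of the pathway, lay on both sides of pLKO after quantile normalization and below it on every array in the values as deposited. Its only probe set, 200779_at, read 1965 in clone 1, 2530 in clone 2 and 2242.1 in clone 3 against 3400.6 in pLKO. Normalized, the log2 difference was -0.02 in clone 1, -0.79 in clone 2 and 0.88 in clone 3, with a mean of 0.02 ± 0.84 (SD, n = 3 comparisons). As deposited the differences were -0.79, -0.43 and -0.60, and with median centring -0.75, -0.69 and 0.02. ATF4 has processed pseudogenes, and signal from them cannot be separated here.

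ATF3, a bZIP factor induced by many stresses, is read by 3 probe sets that disagree. The brightest, 202672_s_at, read 128.4, 83.3 and 41.1 in clones 1 to 3 against 169.8 in pLKO and had normalized log2 differences of 0.15, -1.25 and -0.92. Probe set 1554980_a_at read 81, 98.6 and 54.7 against 82.8, with log2 differences of 0.43, -0.07 and 0.54. The dim 1554420_at, under the filter, read 12.6, 10.7 and 3.3 against 29, below pLKO on every array. ATF5, a relative of ATF4 that is likewise controlled at translation, lay on both sides of the control: 204998_s_at read 71.1, 74.1 and 39.4 against 65.5, and its normalized log2 differences were 0.52, -0.12 and 0.28. Its second tested probe set, 204999_s_at, had differences of -0.21, 0.39 and -0.09, and the other 2 were at or near the floor.

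How far clone 3 joins clones 1 and 2 rests on the scaling. Of the 21 probe sets, 16 had a lower deposited intensity in each of the 3 clones than in pLKO, beside 20.8% of all probe sets, both counted with no filter or floor and so with dim probe sets included. In the values as deposited, 9 of the 10 genes were lower in all 3 comparisons, ATF5 being the exception, beside 20.4% of all genes tested. With median centring of the arrays in place of quantile normalization, 8 were lower, beside 27.2%, with ATF4 and ATF5 the exceptions. For clone 3, the log2 difference of DDIT3 was 0.32 with quantile normalization, -0.53 with median centring and -1.15 as deposited, and that of CHAC1 was 0.33, -0.35 and -0.97. That of CEBPG was 0.72, -0.01 and -0.63, that of ATF4 0.88, 0.02 and -0.60, and that of ATF5 0.28, -0.11 and -0.73. Against this, GDF15 stood at -2.52, -3.51 and -4.13 in clone 3 and GTPBP2 at -2.39, -2.85 and -3.47, lower on each scale. The median of all tested probe sets in clone 3 was 0.00, -0.35 and -0.89 on the same scales. In clone 2, whose 3' to 5' ratios were no higher than those of pLKO, DDIT3 had -2.83, -2.87 and -2.61 on the 3 scales, GDF15 -4.58, -4.69 and -4.42, and CEBPB -1.94, -1.86 and -1.60.

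**Figure D2:**
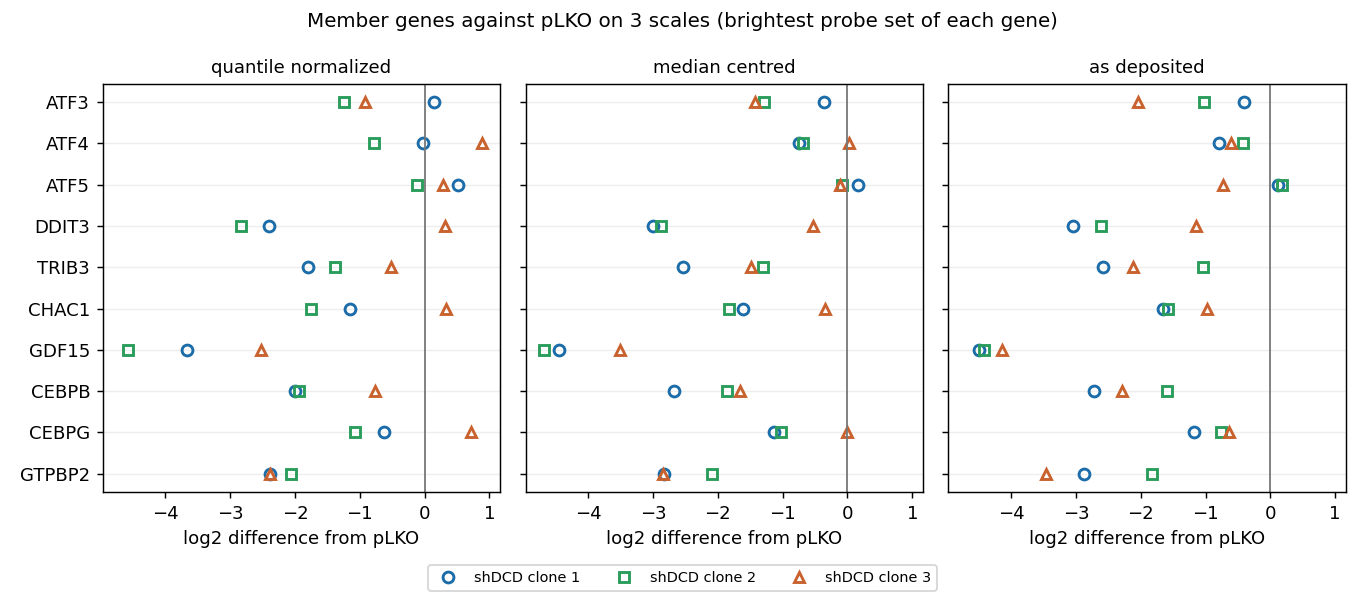
log2 difference from the pLKO array of the 10 genes by the brightest probe set of each, with quantile normalization, median centring and the values as deposited, all floored at 16; circles are clone 1, squares clone 2 and triangles clone 3, and the vertical line marks no difference. GDF15 lies left of the line throughout, between -4.69 and -2.52, while clone 3 crosses the line for ATF4, ATF5, DDIT3, CHAC1 and CEBPG between the scales.

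Genes that ATF4 is known to switch on, other than the members, were set beside them as a list of 29, of which 27 were tested; most of these genes had been examined on the same arrays before, so the list is not independent evidence. Many serve amino acid synthesis, amino acid import or tRNA charging, and others, such as JDP2, NUPR1 and STC2, do not. Of the 27, 15 (55.6%) were lower than pLKO in all 3 comparisons, beside 21.3% of all genes, 11 went both ways, and 1 was higher, the bZIP factor JDP2 at 1.30-fold, 1.17-fold and 1.21-fold. CTH, 1 of the 15, passed the filter only through pLKO, at 26.8 normalized, with 19.2, 25.4 and 17.1 in clones 1 to 3. The filter thus favoured its place among the 15. At least 2-fold lower were 16 in clone 1 (59.3%, beside 9.09% of all genes), 17 in clone 2 (63.0%, beside 4.34%) and 6 in clone 3 (22.2%, beside 22.4%). The median log2 difference was -1.06, -1.30 and -0.27 in clones 1, 2 and 3. Without clone 3, 25 of the 27 were lower in both other clones, beside 30.8% of all genes. With median centring 22 were lower in all 3 comparisons, beside 27.2% of all genes. In the values as deposited there were 21, beside 20.4%. None was higher on either scale, JDP2 included.

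Among them, PCK2, which makes phosphoenolpyruvate in mitochondria, was 2.95-fold, 2.99-fold and 5.38-fold lower. The alanyl-tRNA synthetase AARS1 was 2.59-fold, 2.48-fold and 3.31-fold lower. For CBS, of cysteine synthesis, the difference was 2.14-fold, 3.10-fold and 2.42-fold, and for MTHFD2, a folate enzyme of mitochondria, 2.09-fold, 3.29-fold and 2.49-fold. Asparagine synthetase (ASNS) stood, like DDIT3, on both sides of pLKO, at 5.42-fold and 6.09-fold lower in clones 1 and 2 and 1.40-fold higher in clone 3. In clone 3, 4 of the 27 were at least 2-fold higher, where 14.9% of all genes were: EPRS1 at 6.39-fold, NUPR1 at 4.57-fold, NARS1 at 3.96-fold and PSPH at 2.54-fold.

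**Figure D3:**
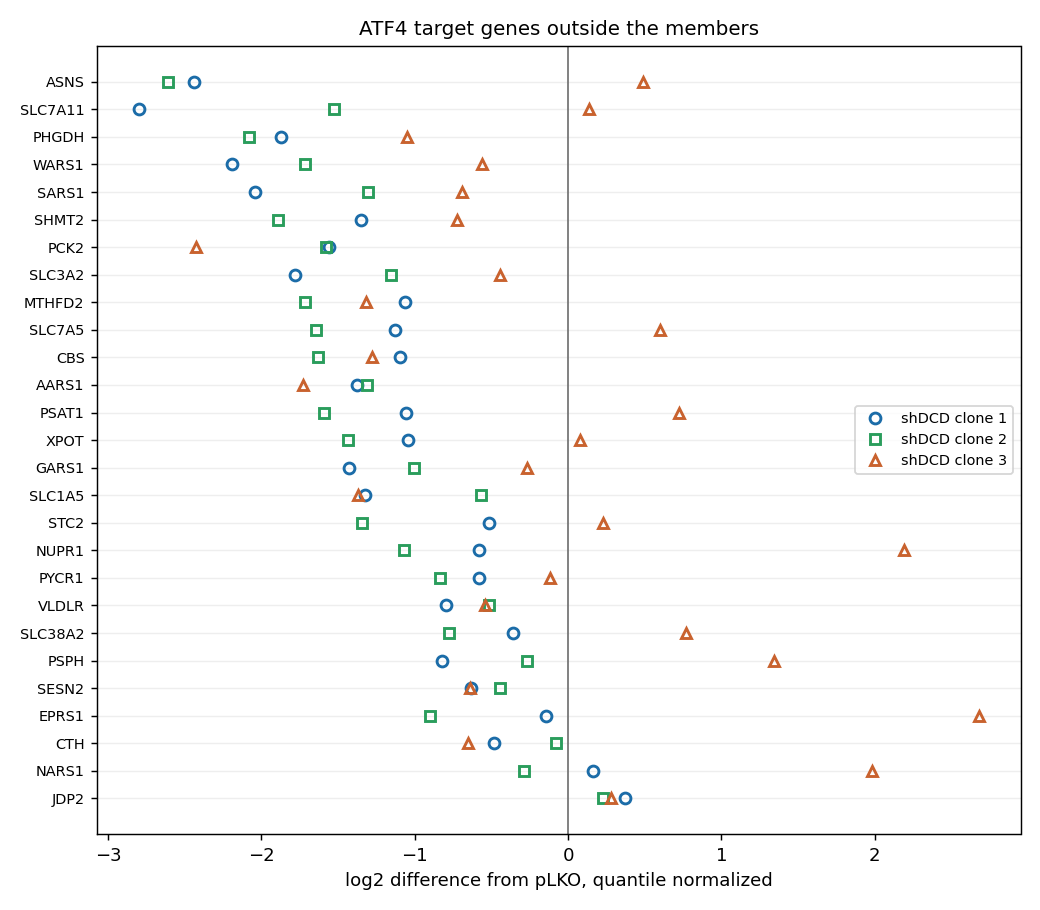
log2 difference from the pLKO array, quantile normalized, of the 27 tested ATF4 target genes outside the members, ordered by their mean in clones 1 and 2; circles are clone 1, squares clone 2, triangles clone 3 and the vertical line marks no difference. In clones 1 and 2, 25 genes lie left of the line in both, while the triangles of clone 3 spread from -2.43 for PCK2 to 2.68 for EPRS1.

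Upstream of ATF4 stand the kinases that phosphorylate eIF2 alpha, the phosphatase subunits that reverse it and the exchange factor eIF2B that it blocks. Of 12 such genes, 3 stood below pLKO on every shDCD array, 2 above it and 7 on both sides, with medians of -0.27, 0.17 and 0.22. The shares, 25.0% lower and 16.7% higher, lie near the 21.3% and 18.8% of all genes. Below pLKO were EIF2AK3 (PERK, the kinase of the endoplasmic reticulum), at 1.84-fold, 1.16-fold and 3.11-fold, the phosphatase subunit PPP1R15B, at 1.71-fold, 1.36-fold and 2.54-fold, and EIF2B2. Above it were the kinase EIF2AK4 (GCN2), at 2.24-fold, 1.33-fold and 1.20-fold, and the eIF2B subunit EIF2B5, at 1.65-fold, 2.07-fold and 2.07-fold. The counts of 3 lower and 2 higher became 4 and 1 with median centring and 2 and 0 in the values as deposited. Of all genes, 27.2% and 20.4% were lower on those scales.

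Of 6 tested genes listed as downstream of CHOP, 2 (33.3%, beside 21.3% of all genes) were lower in all 3 comparisons and 0 higher. The medians were -0.49, -1.14 and 0.27. On either other scale 5 were lower, beside 27.2% of all genes with median centring and 20.4% as deposited. DNAJB9, a chaperone of the endoplasmic reticulum, was 4.14-fold, 4.07-fold and 3.05-fold lower. For the death receptor TNFRSF10B the difference was 1.53-fold, 2.46-fold and 1.09-fold. PPP1R15A (GADD34), which ends the eIF2 alpha response, was 1.28-fold and 2.42-fold lower in clones 1 and 2 and 1.32-fold higher in clone 3.

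The other branches of the unfolded protein response, led by ATF6 and XBP1, were lower in all 3 comparisons in 9 of 13 tested genes and higher in 0, with medians of -0.61, -0.61 and -0.93. All genes stood at 21.3% lower and 18.8% higher. Among those lower throughout, the chaperone HSPA5 was 3.14-fold, 3.13-fold and 6.06-fold lower, the secreted factor MANF 2.04-fold, 2.75-fold and 2.88-fold, the stress protein HERPUD1 3.96-fold, 1.79-fold and 3.95-fold, and XBP1 1.53-fold, 1.53-fold and 4.64-fold. The rest went both ways. The chaperone HSP90B1 had log2 differences of -0.35, -1.32 and 1.11, and the sensor kinase ERN1 -1.79, -1.43 and 0.12. Those of ATF6B were 0.22, -0.28 and -0.09, and those of CRELD2 -0.45, 0.05 and -1.95. With median centring 10 of the 13 were lower, beside 27.2% of all genes, and as deposited 11, beside 20.4%. Of 17 other bZIP factors tested, 9 (52.9%, beside 21.3%) lay below pLKO throughout and 1 (JDP2) above it. The medians were -0.12, -0.20 and -0.66. With median centring 9 lay below, beside 27.2% of all genes, and as deposited 7, beside 20.4%. NFIL3, a transcriptional repressor, was 5.19-fold, 2.45-fold and 9.67-fold lower, and JUNB 2.72-fold, 1.81-fold and 8.58-fold. The clone 3 value of NFIL3 lay close to the floor, at 11.6 as deposited and 16.5 normalized. BATF3 was at least 2.14-fold lower in clones 1 and 2, both at the floor, and 1.43-fold lower in clone 3. FOS was 1.41-fold lower in clone 1 and at least 2.30-fold lower in clones 2 and 3. Both passed the filter only through pLKO, at 34.2 normalized for BATF3 and 36.8 for FOS. They count among the factors below pLKO throughout, which the filter nearly fixed.

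The closest relatives of the members did not follow them as a group. Of 6 tested, 1 (16.7%, beside 21.3% of all genes) was below pLKO on each shDCD array, 3 were above it (50%, beside 18.8%) and CEBPA and CEBPD went both ways, with medians of 0.16, 0.16 and 0.15. TRIB2 was 1.67-fold, 1.13-fold and at least 3.16-fold lower, being at the floor in clone 3, while TRIB1 was 2.01-fold, 1.11-fold and 1.01-fold higher and GTPBP1 1.25-fold, 1.13-fold and 2.12-fold higher. The third was JDP2, a relative of ATF3. None of the 6 was higher in all 3 comparisons with median centring or as deposited. With median centring 1 was lower, beside 27.2% of all genes, and as deposited 0, beside 20.4%. Around GDF15, 3 genes of its receptor and processing were tested: RET, FURIN and PCSK6. The receptor GFRAL itself had no probe set annotated to it alone. Of the 3, 1 (33.3%, beside 21.3% of all genes) was lower in all 3 comparisons. This was the convertase PCSK6, with log2 differences of -0.66, -0.40 and -0.51. On either other scale 2 were lower, beside 27.2% of all genes with median centring and 20.4% as deposited.

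By the distance between the 3 normalized log2 differences, the genes nearest to GDF15 were SERPINA3, at 1.03, and then CXCL8, ITGA6, CAMP and VEGFA, at 1.93 to 2.26. Nearest to DDIT3 were KLHDC7B at 0.23 and ASNS at 0.28, followed by COL14A1, CD55 and CYP2B6 at 0.75 to 1.05. The distances rest on 3 values that share a control, so they describe these arrays alone.

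Across the whole table, limma took its spread from the 3 shDCD arrays, on the assumption that pLKO cultures vary as much as these derivatives do, and called 0 of 27307 probe sets lower (0%) and 0 higher (0%) at a Benjamini-Hochberg adjusted p under 0.05. At an unadjusted p under 0.05 there were 125 lower and 81 higher. The hairpins differ between these arrays, so such p-values measure the spread between derivatives and not between repeats of one. No gene of the lists above therefore passed, and the differences described stand without support from a replicated test.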

How the data were processed

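Per the labels, RNA from 3 shDCD derivatives and 1 pLKO control of MDA-MB-361 was hybridized to 1 array each. The paper names dChip for its array analysis; how the deposited intensity values, on a linear scale, were made is not stated there or in the labels. Their medians differ between arrays, so log2 intensities were quantile normalized, with values of 0 set to 0.1 beforehand and values under 16 set to 16 afterwards. After 62 control probe sets were left out, 27307 probe sets, those whose log2 values averaged no less than the median probe set's, were tested.

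Probe sets were named from the platform annotation (41097 with 1 gene, 1801 with several, 11777 unnamed here), with symbols updated by gene identifier for 41043 from a GRCh38.p14 gene table. Outside the members, a gene was represented by its brightest probe set, and its differences are those of that probe set. Each shDCD array was set against pLKO, with at least 2-fold, or 3-fold in all 3 comparisons, as call rules. limma 3.58.1 in R 4.3.3 was run on every tested probe set, and its script was tested on simulated data with less spread than these arrays. Lists covered the eIF2 machinery, ATF4 targets, CHOP targets, the ATF6 and XBP1 branches, other bZIP factors, paralogs, the GDF15 receptor and processing, and cell markers. Members and lists were chosen with earlier results of these data known. All members are named. From each other list come up to 4 genes going one way in all comparisons, ranked by the smallest of their 3 absolute differences. Genes that make up a stated count of 5 or fewer are named too. ASNS and PPP1R15A were named after their values were seen. The genes of the ATF6 and XBP1 branches that went both ways were also named outside this rule. Alternatives were the values as deposited, median centring, floors of 1 and 64, other filters and folds, the mean of all probe sets, limma with a trend, the methods' paired test, and each shDCD array left out. The counts of the lists other than ATF4 targets on the other scales were added after seeing the data. An array has no read depth, and the number of arrays limits the precision. Figures were drawn with matplotlib 3.10.9.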

Additional observations from a re-analysis of the deposited data

Results flagged for a closer look

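For 4 genes the clones lay on opposite sides of pLKO, with at least 1 clone at least 2-fold lower; the difference between the clones was not tested, since each is 1 array. DDIT3 had a log2 difference of -2.83 in clone 2 and 0.32 in clone 3, CHAC1 -1.76 in clone 2 and 0.33 in clone 3, and CEBPG -1.08 in clone 2 and 0.72 in clone 3. ATF3 had -1.25 in clone 2 and 0.15 in clone 1. For DDIT3, CHAC1 and CEBPG the clone 3 value is negative in the values as deposited, and for ATF3 the clone 1 value is (-0.40).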

How the results depend on the processing

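Of 209 values under alternatives, 24 moved, by over 1.5 times for a count or over 1 SD of the comparisons for a log2 difference, and no gene with 1 direction in all comparisons changed sign. Among genes going both ways, the mean changed sign in 6 cases: ATF4 from 0.02 to -0.61 as deposited, -0.47 with median centring and -0.40 without clone 3, ATF5 from 0.22 to -0.15 and -0.01 on those scales, and CEBPG from -0.33 to 0.05 without clone 2; the cause of each move was not tested unless stated. The number of genes lower in all comparisons went from 4 to 9 in the values as deposited and 8 with median centring. In clone 3, probe sets past 2-fold lower went from 4 to 9 and 8, and the median log2 difference of the genes from -0.12 to -1.60 and -0.98. The median of all tested probe sets in clone 3 was itself -0.89 and -0.35 on those scales. Probe sets 3-fold lower or more throughout went from 2 to 4 under both. The shares of all probe sets past 2-fold or 3-fold on those scales were not counted. Leaving out each shDCD array in turn gave 4 to 8 genes lower in all, 3 to 6 probe sets at least 3-fold lower in all and 15 to 25 ATF4 targets lower in all, each highest without clone 3 (8, 6 and 25). GDF15, GTPBP2, CEBPB and TRIB3 were among the genes lower under every alternative. At 1.5-fold there were 7 probe sets lower in clone 3, and at 3-fold 6 lower in clone 2, with no share of all probe sets counted at either. The mean log2 difference of GDF15 ran from -4.35 to -1.86, the latter when its probe sets were averaged, and that of GTPBP2 from -2.72 to -1.59. limma called 430 probe sets lower and 5 higher with a floor of 64, and 1308 lower and 18 higher with no filter; of those lower, 402 and 1221 had equal values on the 3 shDCD arrays, as the floor gives. Under its other settings limma called 0, and the methods' paired test called 0 after adjustment, against 1076 lower and 1246 higher before adjustment. The methods' test sets the mean of the 3 log2 differences from the shared pLKO array against 0. No paired analysis was possible because there is 1 pLKO array, so no fit with a replicate block can be made. Low signal limits the dim probe sets: 39.3% to 55.1% of each array's deposited values were below 16.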
